A study of Homo sapiens with 12 samples.

Results

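The genes described here encode the nuclear part of the mitochondrial respiratory chain and ATP synthase. They were taken from the deposited gene table by their symbols, with the patterns NDUFA, NDUFB, NDUFC, NDUFS or NDUFV plus a number for complex I, SDHA to SDHD for complex II, UQCR and CYC1 for complex III, COX4I, COX5, COX6, COX7 and COX8 for complex IV, and ATP5F1, ATP5M and ATP5P for complex V. Symbols of pseudogenes were left out. The rule found 87 of the 27864 genes in the table, of which 37 fell in complex I, 4 in complex II, 10 in complex III, 17 in complex IV and 19 in complex V. Of these, 82 passed the filter on low counts and were tested among 16081 genes. The 5 that did not pass, COX4I2, COX6A2, COX6B2, COX7A1 and COX8C, are tissue-restricted isoforms of complex IV subunits.

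The libraries came from T47D, a luminal breast cancer cell line that carries an activating mutation of PIK3CA, in an NF1 knockout (NF1KO) and a control (CTRL) version. Both lines were kept for 48 h in BYL719 at 3 µM, a drug also called alpelisib that blocks PI3 kinase alpha, or in the solvent DMSO. The groups are NF1KO with BYL719 (3 libraries), NF1KO with DMSO (2 libraries), CTRL with BYL719 (3 libraries) and CTRL with DMSO (3 libraries), and the comparison asks how the drug response depends on NF1, which encodes a negative regulator of RAS. How the knockout was made, and whether either line is 1 clone, is not given in the sources used here, so a difference between the lines cannot be told apart from other differences between them. The series text speaks of experimental replicates without naming separate cultures, so p-values measure the spread between these libraries, which may be technical.

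Complex I oxidises NADH and complex II oxidises succinate, and both pass electrons to ubiquinone. Complex III hands these electrons to cytochrome c, complex IV delivers them to oxygen, and complexes I, III and IV pump protons across the inner membrane. Complex V, the ATP synthase, lets the protons flow back through a rotating ring of c subunits and makes ATP in its F1 head. Complex II is entirely nuclear-encoded, whereas the other complexes also hold subunits made from mitochondrial DNA, which are not analysed here.

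Each library held 53283945 to 60148876 counts. Ribosomal RNA genes took 8.45% to 12.3% of the counts, and the 87 subunit genes together took 0.915% to 1.3%. NF1 itself stood at 0.400 to 0.891 CPM (a gene's counts relative to the scaled total of its library) in the 5 NF1KO libraries, against 147 to 289 CPM in the 6 CTRL libraries, as the labels say. All 9 luminal epithelial markers had group means of at least 127 CPM, while 11 of 12 marker genes of fibroblasts, endothelium and immune cells stayed under 2 CPM in every group. The exception was COL1A1, with means of 19.5 CPM in NF1KO BYL719, 25.8 in NF1KO DMSO, 31.3 in CTRL BYL719 and 52.1 in CTRL DMSO libraries, whose part in the results was not tested. Both CTRL libraries numbered 1 stood apart by a lower summed level of the subunit genes, so the results that rest on them are also given without them.

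BYL719 was followed by lower mRNA of respiratory chain subunits in both lines. In CTRL cells 33 of the 82 tested genes fell and 0 rose (edgeR quasi-likelihood test, Benjamini-Hochberg adjusted p under 0.05), which is 40.2% of them, against 21.8% of all tested genes that fell and 22.6% that rose (44.4% in all). In NF1KO cells 13 fell and 0 rose, or 15.9%, against a background of 8.47% that fell and 10.3% that rose (18.7% in all). All 13 were among the 33 that fell in CTRL cells. Both comparisons share no library but share the model's estimate of each gene's spread, so they are not independent. This overlap was not set against that of all tested genes. The median log2 fold change of the 82 genes was -0.23 in CTRL and -0.19 in NF1KO cells, against 0.00 and 0.01 over all tested genes, and 70 of 82 changes in CTRL and 72 of 82 in NF1KO cells were negative. In CTRL cells 35 genes had every BYL719 library below every DMSO library and 0 had every one above, against 25.3% below and 25.8% above of all tested genes. In NF1KO cells 35 lay below and 2 above, against 26.2% and 28.4%.

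In CTRL cells BYL719 and DMSO libraries with the same number deviated together, so the numbers were taken to pair them. Libraries numbered 2 and 3 also correlated across numbers (r = 0.18 and 0.23), so this rests mainly on the libraries numbered 1. With this pairing in the model of the CTRL libraries alone, 62 genes fell and 4 rose, against 34% of all tested genes that fell and 32.9% that rose. All 33 genes above were among the 62. This model, with 2 residual degrees of freedom, and the block within each line below were added after the data were seen. Their calls here and for single genes below are read with that caution. Without both CTRL libraries numbered 1, 35 fell and 1 rose, with 23.5% of all tested genes falling under that setting. The count was 21 without CTRL DMSO replicate 2, with 18.7% of all tested genes falling. A block for the number over all libraries gave 48 that fell and 0 that rose in CTRL cells (26.3% and 26.7% of all tested genes), and a block within each line gave 58 and 4 (31.6% and 31.8%).

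The count for NF1KO cells rested on few libraries. It was 1 without either NF1KO DMSO library, 5 without NF1KO BYL719 replicate 1, 3 without replicate 2 and 21 without replicate 3, and UQCRFS1 was the gene that remained called in each of these. The share of all tested genes that fell moved too, to 2.64% without NF1KO DMSO replicate 2, 2% without replicate 3, and 5.98%, 4.81% and 8.11% without NF1KO BYL719 replicates 1, 2 and 3. The count was 33 without both CTRL libraries numbered 1 (16% of all tested genes) and 26 when only NF1KO libraries entered the model (13%). With a block within each line it was 41 (20.1% of all tested genes fell and 21.8% rose), and the block over all libraries gave 16 that fell and 1 that rose (13.4% and 15.6%). The NF1KO libraries did not pass the check of pairing by number (r = 0.08 and 0.15), so for them these blocks are an assumption.

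**Figure D1:**
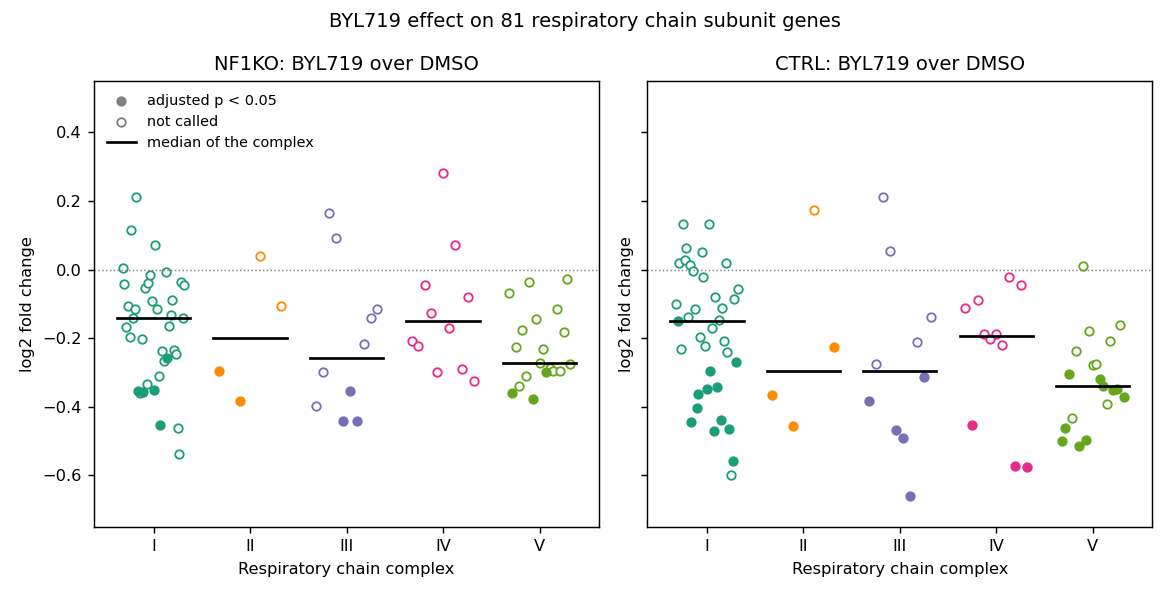
Log2 fold change of BYL719 over DMSO for each tested subunit gene, by complex, in NF1KO (left) and CTRL cells (right). Filled points passed an adjusted p of 0.05 and open points did not, bars mark the median over all tested members of a complex, and COX7B2, which had few counts, is not drawn. Filled points lie below 0 in both lines, 13 in NF1KO and 33 in CTRL cells.

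Summed over all 87 genes, the 3 NF1KO BYL719 libraries held 10663, 10357 and 12238 CPM, against 12396 and 12846 CPM in the 2 NF1KO DMSO libraries. The 3 CTRL BYL719 libraries held 8904, 11224 and 10852 CPM, against 11199, 13057 and 12737 CPM in the CTRL DMSO libraries. In NF1KO cells the groups did not overlap, though BYL719 replicate 3 came close to the DMSO libraries. In CTRL cells BYL719 replicate 2 lay just above DMSO replicate 1, and every BYL719 library was below the DMSO library of its own number, at ratios of 0.795, 0.86 and 0.852. The mean sum was lower by 12.2% in NF1KO and by 16.3% in CTRL cells. These values are shares of the counted reads, so less RNA per cell and fewer expressing cells cannot be told apart.

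The complexes differed in how far their sums moved, with no test made of the sums. Complex V averaged 4335 ± 353 CPM in NF1KO BYL719 libraries (SD, n = 3) and 5067 ± 132 CPM in NF1KO DMSO libraries (n = 2), and 3924 ± 452 CPM in CTRL BYL719 against 5031 ± 349 CPM in CTRL DMSO libraries (n = 3 each). The BYL719 mean was lower by 14.4% in NF1KO and by 22% in CTRL cells. Complex III was lower by 16.5% in NF1KO and 19.3% in CTRL cells, and complex IV by 7.79% in NF1KO and 14% in CTRL cells. For complex I the values were 10.1% in NF1KO and 9.97% in CTRL cells, and for complex II 8.9% in NF1KO and 7.01% in CTRL cells. The treatment groups overlapped in CTRL cells for complexes I, II and IV, and in NF1KO cells for complexes I and IV. In CTRL BYL719 libraries SDHC, which was not called lower, averaged 433 of the 825 CPM of complex II. The sum of complex II therefore says little of its other genes, and its median log2 fold change was -0.30 in CTRL and -0.20 in NF1KO cells. Complex V held 37.8% to 41.4% of the summed CPM of all subunits in any library.

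**Figure D2:**
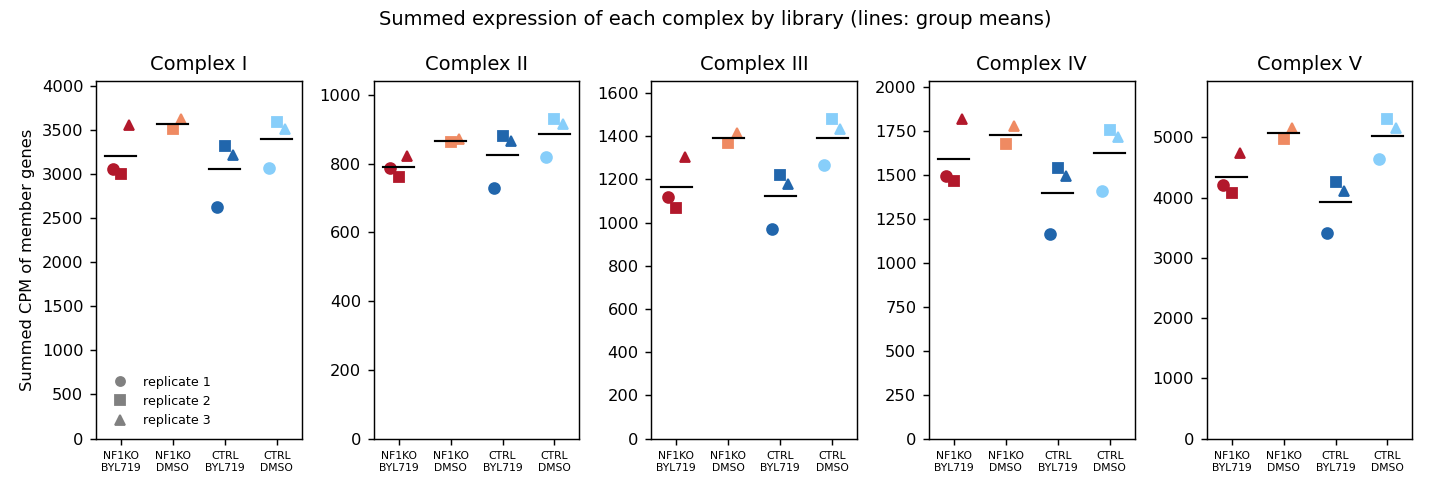
Summed CPM of the member genes of each complex (y axis, starting at 0) in every library, with the group means as lines and the replicate number as the marker shape. In complex V the 3 NF1KO BYL719 libraries (4069 to 4735) lie below the 2 NF1KO DMSO libraries (4974 and 5161), and the 3 CTRL BYL719 libraries (3409 to 4256) lie below the CTRL DMSO libraries (4636 to 5299).

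Among the genes with a promoter window, the one with the smallest adjusted p in CTRL cells was NDUFS1 in complex I, SDHA in complex II, UQCRFS1 in complex III, COX5A in complex IV and ATP5F1A in complex V. Their promoters are shown because nuclear respiratory genes are known to share binding motifs of NRF1 (nuclear respiratory factor 1) and of the ETS factor GABPA. Each line gives the 250 bases before an annotated transcription start on the gene's own strand, 5′ to 3′, from RefSeq (GRCh38.p14), with motif matches in capitals. They lie at chr2:206159445-206159694 (minus strand, NDUFS1), chr5:218070-218319 (plus strand, SDHA), chr19:29213152-29213401 (minus strand, UQCRFS1), chr15:74938074-74938323 (minus strand, COX5A) and chr18:46104228-46104477 (minus strand, ATP5F1A).
NDUFS1: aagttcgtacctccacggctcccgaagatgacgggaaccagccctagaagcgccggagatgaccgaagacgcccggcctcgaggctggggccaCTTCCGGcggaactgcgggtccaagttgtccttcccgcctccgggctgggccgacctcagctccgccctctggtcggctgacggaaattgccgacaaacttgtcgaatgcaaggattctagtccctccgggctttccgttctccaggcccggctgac
SDHA: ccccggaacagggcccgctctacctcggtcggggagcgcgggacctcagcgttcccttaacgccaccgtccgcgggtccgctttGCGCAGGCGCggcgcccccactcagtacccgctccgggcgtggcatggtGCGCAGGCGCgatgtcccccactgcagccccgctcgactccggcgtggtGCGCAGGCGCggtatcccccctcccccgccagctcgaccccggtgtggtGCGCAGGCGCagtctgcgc
UQCRFS1: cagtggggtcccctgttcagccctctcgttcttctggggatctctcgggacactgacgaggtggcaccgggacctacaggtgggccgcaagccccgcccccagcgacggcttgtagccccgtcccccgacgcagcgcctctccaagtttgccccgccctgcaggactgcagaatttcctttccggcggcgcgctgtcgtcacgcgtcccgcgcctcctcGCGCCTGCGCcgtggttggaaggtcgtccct
COX5A: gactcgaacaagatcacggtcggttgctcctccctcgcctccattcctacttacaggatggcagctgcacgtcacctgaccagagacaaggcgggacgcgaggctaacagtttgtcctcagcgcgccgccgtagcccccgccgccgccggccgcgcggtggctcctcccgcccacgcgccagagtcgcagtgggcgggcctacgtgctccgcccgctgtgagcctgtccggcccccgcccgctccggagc
ATP5F1A: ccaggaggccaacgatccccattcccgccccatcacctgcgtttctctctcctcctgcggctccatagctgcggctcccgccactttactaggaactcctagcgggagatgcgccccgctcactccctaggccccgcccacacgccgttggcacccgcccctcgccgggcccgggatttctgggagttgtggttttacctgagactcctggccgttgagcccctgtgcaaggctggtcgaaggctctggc
The SDHA promoter held the NRF1 letters GCGCAGGCGC 4 times, starting 166, 117, 68 and 19 bases before the start. UQCRFS1 held them once, on the other strand and 31 to 22 bases before the start. NDUFS1 held the ETS letters on the other strand, 157 to 151 bases before the start, and the windows shown for COX5A and ATP5F1A held no match. NDUFS1 and ATP5F1A each have 2 windows, of which 1 is shown and described here. The shares below count a gene if any of its windows holds a match. No site overlapped a site of another motif.

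Promoter windows of 300 bases (250 before and 50 after the start) were at hand for 69 of the 87 genes, and the motifs were searched on both strands. The NRF1 motif (of the form shown above) stood in 24.6% of the 69, against 12.4% of 12380 tested genes, 6.98% of all 27305 genes with a window and 5.78% of all windows of this length. The ETS letters CCGGAAG stood in 30.4% of them, against 20.8% of tested genes, 12.2% of all genes and 10.3% of all windows. The motif of YY1 stood in 11.6%, against 2.93% of tested genes, 1.46% of all genes and 1.2% of all windows. The letters TCAAGGTCA, bound by the estrogen-related receptor ERR alpha, stood in 1.45%, which is 1 gene, against 0.283% of tested genes, 0.432% of all genes and 0.353% of all windows. Among the genes that fell in CTRL cells, 8 of 28 with a window held the NRF1 motif, against 8 of 38 tested members that were not called, while the ETS letters stood in 7 of 28 and 14 of 38. A match describes letters in these windows and is not a measured site.

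Complex I has 7 nuclear-encoded core subunits, which carry its flavin and iron-sulfur clusters or bind ubiquinone, and a large set of accessory subunits. In CTRL cells 12 of its 37 genes fell (32.4%, against 21.8% of all tested genes), 3 of them core subunits. In NF1KO cells 5 fell (13.5%, against 8.47% of all tested genes), 1 of them a core subunit. The median log2 fold change was -0.15 in CTRL and -0.14 in NF1KO cells over the complex, and -0.27 in CTRL and -0.16 in NF1KO cells over the core subunits. NDUFS1, the largest iron-sulfur subunit, had 146, 148 and 154 CPM in NF1KO BYL719 libraries, against 179.5 and 178 CPM in NF1KO DMSO libraries. In CTRL it had 137, 139 and 136 CPM with BYL719, against 188, 186 and 185 CPM with DMSO. Neither line overlapped between treatments, and the drop was -0.26 ± 0.06 in NF1KO (log2 fold change ± SE, adjusted p = 0.00972) and -0.44 ± 0.05 in CTRL cells (adjusted p = 3.39e-05). Leaving out either NF1KO DMSO library raised the NF1KO adjusted p to 0.0868 and 0.0833.

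NDUFS8, a core subunit with 2 iron-sulfur clusters, had 42.1, 43.5 and 55.5 CPM in NF1KO BYL719 libraries against 66.9 and 69.7 CPM in NF1KO DMSO libraries. CTRL cells gave 28.5, 38.5 and 39.9 CPM with BYL719, against 40.6, 58.9 and 57.9 CPM with DMSO. The groups did not overlap in either line, but replicate 1 was low in both CTRL groups. Its log2 fold change was -0.54 ± 0.18 in NF1KO (adjusted p = 0.0533) and -0.56 ± 0.16 in CTRL cells (adjusted p = 0.014), and in CTRL the adjusted p was 0.0572 without CTRL DMSO replicate 2 and 0.05001 without replicate 3. NDUFS7, the core subunit next to the ubiquinone site, had log2 fold changes of -0.46 in NF1KO (adjusted p = 0.232) and -0.60 in CTRL cells (adjusted p = 0.0559), and it fell in CTRL cells with the pairing in the model (adjusted p = 1.165e-07). NDUFV2, which holds an iron-sulfur cluster, fell in CTRL cells by 0.27 on the log2 scale, a call that ended without CTRL BYL719 replicate 1 (adjusted p = 0.0849) or 3 (0.0691) and without CTRL DMSO replicate 2 (0.0971) or 3 (0.0652).

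Of the accessory subunits, NDUFB8, which sits in the distal membrane arm, had 101, 98.2 and 124 CPM in NF1KO BYL719 libraries against 143 and 152 CPM in NF1KO DMSO libraries, and 80.9, 105 and 99.2 CPM in CTRL BYL719 libraries against 120.1, 142 and 132 CPM in CTRL DMSO libraries. It fell by 0.45 in NF1KO and by 0.47 in CTRL cells on the log2 scale. NDUFA6, NDUFA9 and NDUFB4 also fell in both lines, by 0.35, 0.36 and 0.35 in NF1KO and by 0.45, 0.40 and 0.35 in CTRL cells. The 3 NF1KO calls of NDUFB8, NDUFA6 and NDUFA9 were lost without either NF1KO DMSO library. They were also lost without NF1KO BYL719 replicate 1 or 2, with adjusted p up to 0.1327. The NDUFA6 call was lost under 8 alternatives in all. NDUFB4 was not followed singly, but its call was also lost without either NF1KO DMSO library, where only UQCRFS1 remained called. At the other end, NDUFB5 and NDUFA13 had log2 fold changes of 0.13 each in CTRL cells, neither of them called. They rose there with the pairing in the model (adjusted p = 0.0147 and 0.00425). NDUFA4, which carries a complex I name but is now counted as a complex IV subunit, had log2 fold changes of -0.11 in NF1KO and -0.14 in CTRL cells, neither of them called, and fell in CTRL cells with the pairing in the model (adjusted p = 0.00258).

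Complex II showed a split between its subunits. In CTRL cells 3 of 4 genes fell (75%) and in NF1KO cells 2 of 4 (50%), against 21.8% and 8.47% of all tested genes. SDHA, the flavoprotein with the succinate site, had 259.9, 261 and 271 CPM in NF1KO BYL719 libraries against 325 and 323 CPM in NF1KO DMSO libraries. In CTRL it had 256, 275 and 276 CPM with BYL719 and 336, 349 and 355 CPM with DMSO. All BYL719 libraries of both lines were below all DMSO libraries. The log2 fold change was -0.29 ± 0.06 in NF1KO (adjusted p = 0.0081) and -0.36 ± 0.06 in CTRL cells (adjusted p = 0.000288).

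SDHB, the iron-sulfur subunit, had 73.6, 71.9 and 82.9 CPM in NF1KO BYL719 libraries against 96.4 and 102 CPM in NF1KO DMSO libraries. CTRL cells gave 56.7, 70.6 and 68.6 CPM with BYL719 and 86.1, 95.0 and 87.8 CPM with DMSO. Again no BYL719 library reached a DMSO library of its line, and the log2 fold change was -0.38 ± 0.10 in NF1KO (adjusted p = 0.019) and -0.46 ± 0.09 in CTRL cells (adjusted p = 0.00134). SDHC and SDHD encode the membrane anchor that binds ubiquinone. SDHC had 388, 366 and 407 CPM in NF1KO BYL719 and 372 and 381 CPM in NF1KO DMSO libraries, and 363, 473 and 462 CPM in CTRL BYL719 against 333, 413 and 404 CPM in CTRL DMSO libraries.

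The treatment groups of SDHC overlapped in both lines, and its log2 fold change was 0.04 in NF1KO and 0.17 in CTRL cells, neither of them called. With the pairing in the model of the CTRL libraries, SDHC rose (0.17 ± 0.04, adjusted p = 0.000835). SDHD fell by 0.23 ± 0.08 in CTRL cells (adjusted p = 0.0281) and had a log2 fold change of -0.11 in NF1KO cells (adjusted p = 0.423). The SDHD call in CTRL cells did not hold without CTRL BYL719 replicate 1 (adjusted p = 0.0848) or 3 (0.0594) and without CTRL DMSO replicate 2 (0.116) or 3 (0.0522). In NF1KO cells the SDHA call did not hold without either DMSO library (adjusted p = 0.0714 and 0.0732), and that of SDHB without DMSO replicate 2 (0.0728) or 3 (0.155) or BYL719 replicate 1 (0.0591) or 2 (0.073). Pseudogene rows in the table held 21.2% as many counts as SDHA, so reads may be split between them.

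**Figure D3:**
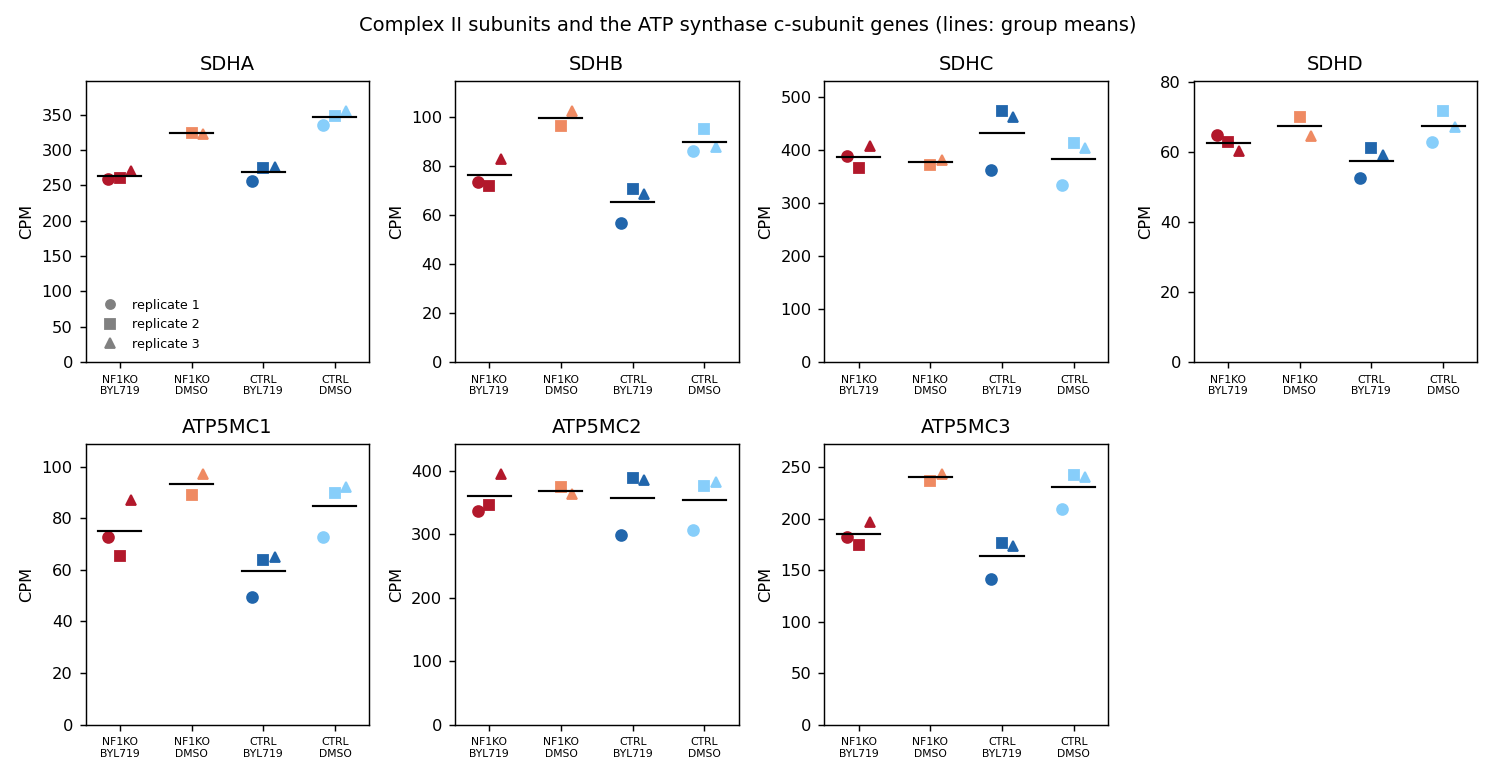
CPM in every library (y axes start at 0) of the 4 complex II genes and the 3 genes of the ATP synthase c subunit, with group means as lines and replicate numbers as marker shapes. SDHA, SDHB, ATP5MC1 and ATP5MC3 have all BYL719 libraries below the DMSO libraries of the same line, while SDHC and ATP5MC2 overlap between treatments.

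In complex III 5 of 10 genes fell in CTRL (50%) and 3 of 10 in NF1KO cells (30%), against 21.8% and 8.47% of all tested genes. The 3 in NF1KO cells, UQCRFS1, UQCRC1 and UQCRC2, are the Rieske iron-sulfur protein and both core proteins. UQCRFS1 had 81.4, 71.6 and 80.3 CPM in NF1KO BYL719 libraries against 105 and 107 CPM in NF1KO DMSO libraries. In CTRL it had 63.6, 71.0 and 66.9 CPM with BYL719 and 103, 111 and 105 CPM with DMSO. These groups lay far apart, and UQCRFS1 showed the largest fall of the 82 genes in CTRL cells, at -0.66 ± 0.07 (adjusted p = 1.17e-05), and it fell by 0.44 ± 0.08 in NF1KO cells (adjusted p = 0.00235). Both calls held under every alternative run.

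UQCRC1 averaged 181 ± 15.7 CPM in NF1KO BYL719 and 246 ± 1.79 CPM in NF1KO DMSO libraries, and 168 ± 18.2 CPM in CTRL BYL719 and 232 ± 24.2 CPM in CTRL DMSO libraries. It fell by 0.44 in NF1KO and by 0.47 in CTRL cells on the log2 scale, and UQCRC2 fell by 0.35 in NF1KO and by 0.49 in CTRL cells. CYC1, the cytochrome c1 haem protein that reduces cytochrome c, had 145, 142 and 175 CPM in NF1KO BYL719 libraries against 196 and 209 CPM in NF1KO DMSO libraries. CTRL cells gave 129, 169.8 and 163 CPM with BYL719 and 173, 215 and 215 CPM with DMSO. Both lines had their BYL719 libraries below their DMSO libraries, with a log2 fold change of -0.40 ± 0.13 in NF1KO (adjusted p = 0.0578) and -0.38 ± 0.12 in CTRL cells (adjusted p = 0.0212). The CYC1 call in CTRL cells did not hold without CTRL BYL719 replicate 1 (adjusted p = 0.0571) or CTRL DMSO replicate 2 (0.0759) or 3 (0.0667), and the NF1KO calls of UQCRC1 and UQCRC2 did not hold without either NF1KO DMSO library (adjusted p 0.0799 to 0.108) or without BYL719 replicate 2 (0.0645 and 0.0525), and that of UQCRC1 without BYL719 replicate 1 (0.0531).

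UQCR11, a small subunit of complex III, had log2 fold changes of 0.16 ± 0.18 in NF1KO and 0.21 ± 0.16 in CTRL cells, neither of them called. It rose in CTRL cells with the pairing in the model (adjusted p = 0.0005). UQCRB, UQCRQ, UQCR10 and UQCRH were not called in either line without the pairing. With it, UQCRQ (adjusted p = 0.00169), UQCR10 (4.002e-06) and UQCRH (6.915e-05) fell in CTRL cells, and UQCRB was not called. UQCRHL, a near-identical copy of the hinge protein gene UQCRH, fell in CTRL cells by 0.31 on the log2 scale (adjusted p = 0.0406), but reads of these genes may be split between them, and the call was lost under 7 of the alternatives. The log2 ratio of UQCRH to UQCRHL differed by -0.07 between BYL719 and DMSO libraries in NF1KO cells, with overlap, and by 0.11 in CTRL cells, where it was 0.296 to 0.320 with BYL719 and 0.113 to 0.252 with DMSO. The mean over both lines was 0.02 (exact permutation within lines, p = 0.815), and the lines were not tested apart.

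Complex IV had 12 tested genes, all with a negative log2 fold change in CTRL cells, but 3 of them fell there and 0 in NF1KO cells. The 25% that fell in CTRL cells is near the 21.8% of all tested genes, and with the pairing in the model 9 of 12 fell, against 34% of all tested genes. These 3 were COX5A, COX7B and COX8A. COX5A, which contacts the catalytic core, had 90.9, 87.0 and 103 CPM in NF1KO BYL719 libraries against 104 and 114 CPM in NF1KO DMSO libraries. In CTRL it had 67.0, 84.4 and 79.7 CPM with BYL719 and 99.3, 112 and 106 CPM with DMSO. The treatment groups did not overlap in either line, and the log2 fold change was -0.22 ± 0.11 in NF1KO (adjusted p = 0.165) and -0.45 ± 0.09 in CTRL cells (adjusted p = 0.00208).

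COX8A had 139, 139.6 and 169 CPM in NF1KO BYL719 libraries against 182 and 192 CPM in NF1KO DMSO libraries, and 77.0, 109.7 and 112 CPM in CTRL BYL719 libraries against 116, 158 and 171 CPM in CTRL DMSO libraries. Its log2 fold change was -0.32 ± 0.17 in NF1KO (adjusted p = 0.22) and -0.58 ± 0.16 in CTRL cells (adjusted p = 0.0106). COX7B fell by 0.57 ± 0.14 in CTRL cells (adjusted p = 0.00544) and had a log2 fold change of -0.29 in NF1KO cells (adjusted p = 0.218). COX6C, a structural subunit, had log2 fold changes of 0.28 ± 0.11 in NF1KO (adjusted p = 0.109) and -0.19 ± 0.10 in CTRL cells (adjusted p = 0.157), neither of them called, and fell in CTRL cells with the pairing in the model (adjusted p = 0.00019). COX4I1, COX6A1, COX6B1 and COX7A2, the broadly expressed isoforms, had log2 fold changes of -0.30 to -0.11 and were not called in either line. With the pairing in the model all 4 fell in CTRL cells (adjusted p 5.647e-05 to 0.00676).

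The tissue-restricted complex IV isoforms were at or near 0. COX6A2 and COX7A1, known from heart and skeletal muscle, had 0 counts in all 11 libraries, and COX4I2, known from lung, had 0 or 1. COX6B2 and COX8C, known from testis, had 0 to 4 and 0 to 5 counts. COX7B2 passed the filter through the CTRL libraries. It had 4, 4 and 0 counts in NF1KO BYL719, 1 and 1 in NF1KO DMSO, 7, 8 and 21 in CTRL BYL719 and 14, 15 and 13 in CTRL DMSO libraries. Fitted fold changes at such counts depend on the prior count and are not given.

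In complex V 10 of 19 genes fell in CTRL (52.6%) and 3 in NF1KO cells (15.8%), against 21.8% and 8.47% of all tested genes. The median log2 fold change was -0.34 in CTRL and -0.27 in NF1KO cells, and the change was negative for 18 genes in CTRL and for all 19 in NF1KO cells. ATP5F1B, the catalytic beta subunit and the highest of the 87 genes per kilobase of exon in CTRL DMSO libraries (825 CPM per kb), had 1138, 1089 and 1197 CPM in NF1KO BYL719 libraries against 1454 and 1476 CPM in NF1KO DMSO libraries. CTRL cells gave 977, 1182 and 1149 CPM with BYL719 and 1435, 1587 and 1531 CPM with DMSO. No BYL719 library reached a DMSO library of its line, and the log2 fold change was -0.36 ± 0.09 in NF1KO (adjusted p = 0.0168) and -0.46 ± 0.08 in CTRL cells (adjusted p = 0.000663). The NF1KO call did not hold without DMSO replicate 2 (adjusted p = 0.0879) or 3 (0.119) or BYL719 replicate 2 (0.0653).

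ATP5F1A, the alpha subunit that alternates with beta in the F1 head, had 741, 745 and 834 CPM in NF1KO BYL719 libraries against 801 and 820.4 CPM in NF1KO DMSO libraries. In CTRL it had 452, 563 and 538 CPM with BYL719 and 681, 777 and 740.1 CPM with DMSO. The groups overlapped in NF1KO and not in CTRL cells, with a log2 fold change of -0.07 ± 0.10 in NF1KO (adjusted p = 0.687) and -0.50 ± 0.09 in CTRL cells (adjusted p = 0.000726). Its call in CTRL cells held under every alternative run. ATP5F1C, the central stalk subunit gamma, fell in CTRL cells by 0.31, and ATP5PB and ATP5PO, parts of the peripheral stalk, fell there by 0.35 and 0.37. The readthrough row ATP5MF-PTCD1 fell by 0.30 in NF1KO (adjusted p = 0.0381) and by 0.32 in CTRL cells (adjusted p = 0.00695), the NF1KO call being lost under 8 alternatives.

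The c subunit of the rotor ring is encoded by 3 genes, ATP5MC1, ATP5MC2 and ATP5MC3, whose products differ in their import sequences and are the same protein once in the mitochondrion. ATP5MC1 had 72.9, 65.4 and 87.1 CPM in NF1KO BYL719 libraries against 89.2 and 97.2 CPM in NF1KO DMSO libraries, and 49.6, 63.9 and 64.8 CPM in CTRL BYL719 libraries against 72.8, 89.8 and 92.1 CPM in CTRL DMSO libraries. ATP5MC3 had 182, 175 and 197 CPM in NF1KO BYL719 against 237 and 244 CPM in NF1KO DMSO libraries, and 141, 176 and 173 CPM in CTRL BYL719 against 209, 242 and 241 CPM in CTRL DMSO libraries. Both genes had all BYL719 libraries below the DMSO libraries of their line. ATP5MC2 had 338, 347 and 396 CPM in NF1KO BYL719 and 374 and 364 CPM in NF1KO DMSO libraries, and 299, 389 and 386 CPM in CTRL BYL719 and 306, 376 and 383 CPM in CTRL DMSO libraries. It overlapped between treatments in both lines.

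ATP5MC1 fell in CTRL cells by 0.51 ± 0.13 (adjusted p = 0.00679) with a log2 fold change of -0.31 in NF1KO cells (adjusted p = 0.154), and ATP5MC3 fell by 0.50 ± 0.09 in CTRL (adjusted p = 0.000933) and by 0.38 ± 0.10 in NF1KO cells (adjusted p = 0.0233). The NF1KO call of ATP5MC3 did not hold without DMSO replicate 2 (adjusted p = 0.0983) or 3 (0.15) or BYL719 replicate 1 (0.0639) or 2 (0.0844). ATP5MC2 had log2 fold changes of -0.03 in NF1KO and 0.01 in CTRL cells. The ratio of 2 genes within a library does not depend on how libraries are scaled. The log2 ratio of ATP5MC1 to ATP5MC2 was lower by 0.28 with BYL719 in NF1KO and by 0.53 in CTRL cells, and that of ATP5MC3 to ATP5MC2 by 0.34 in NF1KO and by 0.51 in CTRL cells. An exact 2-sided permutation of treatment labels within lines gave p = 0.005 for each, the smallest that 200 arrangements allow. After Benjamini-Hochberg adjustment over the 5 ratios tested, p was 0.0125. The ratios were chosen after their values were seen, and the permutation did not keep CTRL libraries paired by number, so these p-values are descriptive. The ratio of ATP5MC1 to ATP5MC3 changed by 0.02 (exact permutation, p = 0.725), and that of COX7A2 to COX7A2L, a paralog that acts in supercomplex formation, fell by 0.23 (p = 0.01, adjusted 0.0167).

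The size of the BYL719 effect ran in parallel over the genes of both lines. Across the 82 genes, Pearson's r between the effects in CTRL and NF1KO cells was 0.508 and Spearman's rho 0.719, and without COX7B2 r was 0.728 over 81 genes. Genes of 1 line share libraries, so these values describe the genes and carry no p. The same correlation was not computed over all tested genes, so whether it is particular to the subunit genes was not tested. Within CTRL cells the effect was nearly unrelated to transcript GC content (r = -0.01), exon length (r = 0.10) or mean level (r = 0.02) over the 82 genes, while in NF1KO cells r was -0.31 with GC content, 0.08 with exon length and -0.40 with mean level (Spearman's rho 0.01 for mean level).

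**Figure D4:**
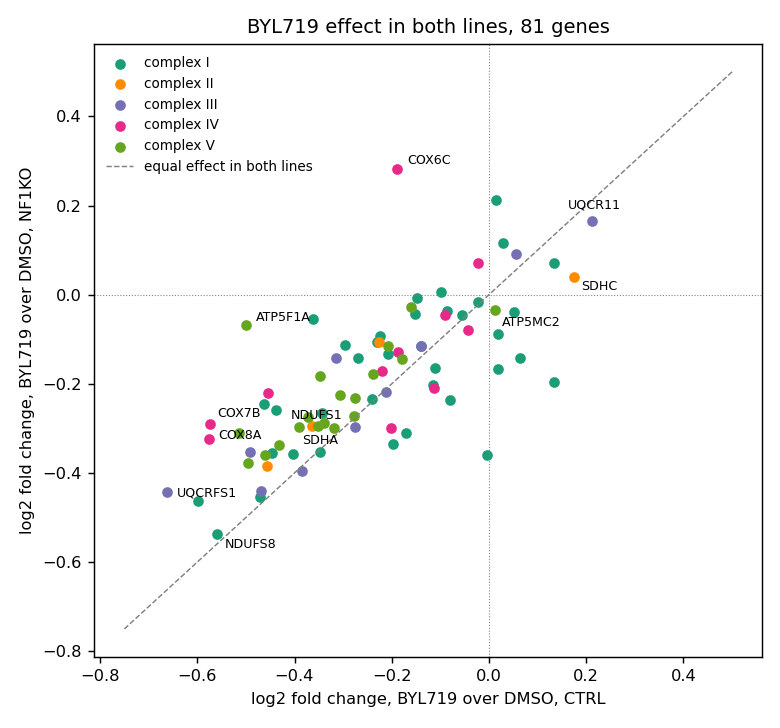
Log2 fold change of BYL719 over DMSO in NF1KO (y axis) against CTRL cells (x axis) for 81 tested genes, coloured by complex, with a dashed line of equal effect. Most points lie in the lower left part, where both lines are negative, and COX6C and ATP5F1A lie farthest above the line, with differences of 0.47 and 0.43.

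The difference between the lines in the BYL719 effect was tested as an interaction. It was called for 0 of 82 genes (edgeR), against 9.39% of all tested genes (5.68% with the higher and 3.71% with the lower effect in NF1KO cells). An unadjusted p under 0.05 was found for 3 of the 82 genes, all with the higher value in NF1KO cells, against 21% of all tested genes. The smallest adjusted p belonged to ATP5F1A (difference 0.43 ± 0.13, adjusted p = 0.0677) and COX6C (0.47 ± 0.15, adjusted p = 0.0834), followed by NDUFS1 (0.18, adjusted p = 0.211), UQCRFS1 (0.22, adjusted p = 0.252), COX5A (0.23, adjusted p = 0.397) and NDUFB1 (0.31, adjusted p = 0.413). The difference was positive in 60 of 82 genes with a median of 0.06, and the median was -0.05 without CTRL BYL719 replicate 1 and -0.03 without NF1KO BYL719 replicate 3. DESeq2 called ATP5F1A (adjusted p = 0.0284) and COX6C (0.0481), and over 20 alternatives ATP5F1A was called in 5 and COX6C in 4, with adjusted p of 9.914e-05 to 0.226 and 1.995e-05 to 0.296. With a block for the number inside each line, 9 genes had a higher and 2 a lower effect in NF1KO cells (14.9% and 12.1% of all tested genes). That block was added after the data were seen, and the NF1KO libraries did not pass the check of pairing. The block over all libraries gave 2 and 0 (8.4% and 5.46%).

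Between the lines in DMSO, few subunit genes differed. In NF1KO cells 1 of 82 was higher and 3 were lower than in CTRL cells, or 4.88%, against 20.3% of all tested genes (9.99% higher and 10.3% lower). Every NF1KO library lay above every CTRL library for 22 genes and below for 11, against 27.9% and 28.2% of all tested genes. The higher one was COX6C, with 201 and 216 CPM in NF1KO DMSO libraries against 147, 177 and 157 CPM in CTRL DMSO libraries, a log2 fold change of 0.38 ± 0.11 (adjusted p = 0.0336). That call did not hold without CTRL DMSO replicate 1 (adjusted p = 0.0889) or 3 (0.0827) or NF1KO DMSO replicate 2 (0.0981) or 3 (0.211). The lower ones were ATP5MF, ATP5MF-PTCD1 and COX7B2. COX7B2 passed the filter through the CTRL libraries, where it is higher, so its call is not read as a result, and the call did not hold without either NF1KO DMSO library (adjusted p = 0.1 and 0.107).

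ATP5MF encodes subunit f of the membrane part of ATP synthase and lies at chr7:99458195-99466167 (GRCh38.p14). ATP5MF-PTCD1 is an annotated readthrough of it at chr7:99416739-99466167 that shares its exons, so the 2 rows are not independent. ATP5MF had 84.6 and 96.6 CPM in NF1KO DMSO libraries against 117, 134 and 128 CPM in CTRL DMSO libraries, and 72.3, 65.5 and 93.6 CPM in NF1KO BYL719 libraries against 90.4, 114 and 109 CPM in CTRL BYL719 libraries. It was lower in NF1KO cells by 0.48 ± 0.14 in DMSO (adjusted p = 0.0341), a call that did not hold without any 1 of CTRL DMSO replicates 2 and 3 or the NF1KO DMSO libraries (adjusted p 0.0738 to 0.242). With BYL719 the log2 fold change was -0.44 ± 0.13 (adjusted p = 0.0161), a call that did not hold without CTRL BYL719 replicate 2 (0.0608) or NF1KO BYL719 replicate 1 (0.0654) or 2 (0.072). ATP5MF-PTCD1 was lower by 0.48 ± 0.09 in DMSO (adjusted p = 0.00274, or 0.0529 without NF1KO DMSO replicate 2) and by 0.46 ± 0.08 with BYL719 (adjusted p = 0.000654).

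With BYL719 in both lines, 8 of 82 genes were higher and 3 lower in NF1KO than in CTRL cells, or 13.4%, against 39.8% of all tested genes (20.8% higher and 19% lower). Every NF1KO library lay above every CTRL library for 16 genes and below for 2, against 25.2% and 23.7% of all tested genes. With the block over all libraries 20 were higher, against 25.8% of all tested genes. The 3 lower ones were ATP5MF, ATP5MF-PTCD1 and COX7B2, the last again through the filter and not read as a result. The COX7B2 call did not hold without CTRL BYL719 replicate 3 (adjusted p = 0.114) or NF1KO BYL719 replicate 3 (0.0608). The 8 higher ones were NDUFS7, NDUFS6, NDUFC2, UQCRFS1, COX6C, COX8A, COX5A and ATP5F1A. COX6C had 231, 236 and 294 CPM in NF1KO BYL719 libraries against 129, 151 and 142 CPM in CTRL BYL719 libraries. The groups were far apart, with a log2 fold change of 0.85 ± 0.10 (adjusted p = 3.56e-05). ATP5F1A, whose libraries are listed above, was higher by 0.58 ± 0.09 (adjusted p = 0.000252), and neither call was lost under any alternative run.

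NDUFS7 had 20.7, 22.5 and 29.8 CPM in NF1KO BYL719 libraries against 10.1, 16.8 and 17.0 CPM in CTRL BYL719 libraries, a log2 fold change of 0.73 ± 0.23 (adjusted p = 0.0257). NDUFC2, an accessory subunit of the membrane arm, had 129, 119.6 and 128 CPM in NF1KO BYL719 libraries against 83.5, 105 and 104 CPM in CTRL BYL719 libraries (0.36 ± 0.09, adjusted p = 0.00945). COX8A was higher by 0.58 ± 0.16 (adjusted p = 0.0111) and NDUFS6 by 0.47 ± 0.12 (adjusted p = 0.0084). COX5A was higher by 0.28 and UQCRFS1 by 0.21. The calls of NDUFS7 and COX8A did not hold without NF1KO BYL719 replicate 3 (adjusted p = 0.111 and 0.0507), that of NDUFS7 also without CTRL BYL719 replicate 1 (0.0669), and those of COX5A and UQCRFS1 were each lost without any 1 of CTRL BYL719 replicates 1 and 3 or NF1KO BYL719 replicates 1 and 3 (adjusted p 0.0516 to 0.121). NDUFS6 is overlapped by MRPL36 and NDUFC2 by the readthrough NDUFC2-KCTD14, whose rows held 52.7% and 64.8% as many counts, so reads may be split.

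**Figure D5:**
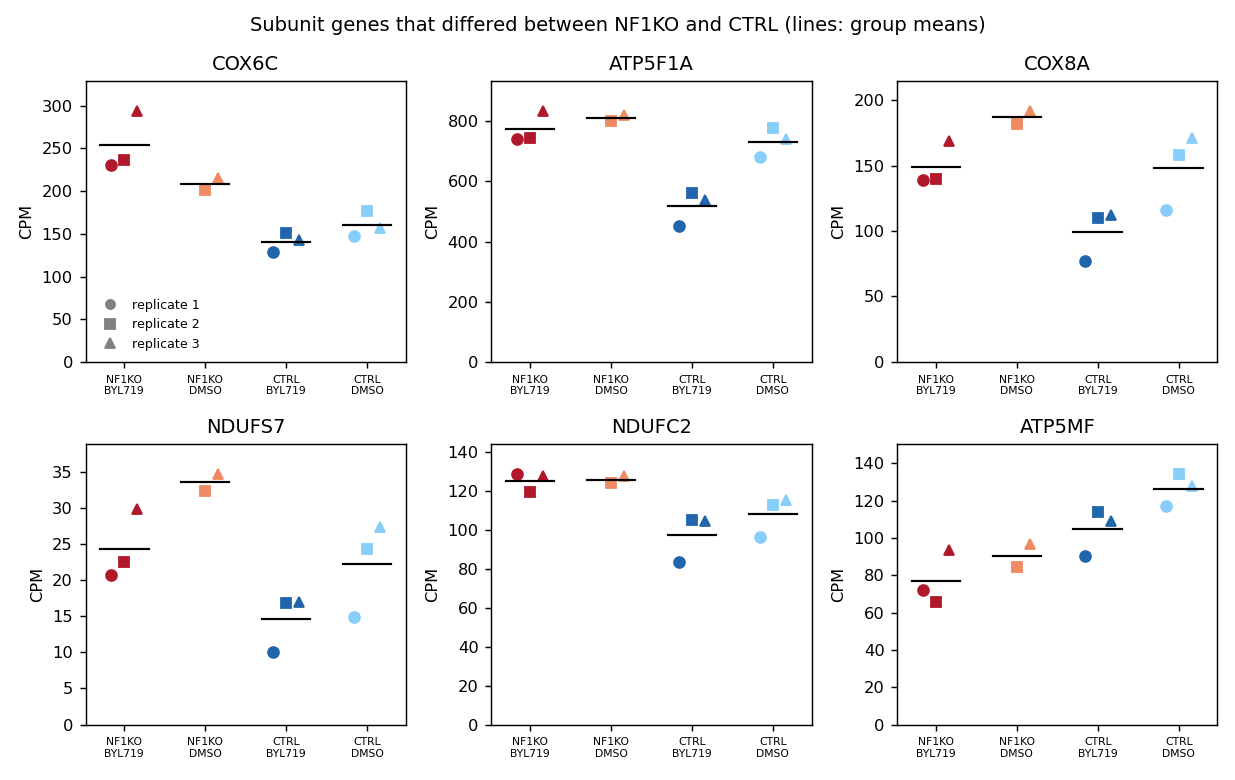
CPM in every library (y axes start at 0) of 6 subunit genes that differed between NF1KO and CTRL cells with BYL719, with group means as lines and replicate numbers as marker shapes. COX6C reaches 231 to 294 CPM in NF1KO BYL719 libraries and 129 to 151 CPM in CTRL BYL719 libraries, and ATP5MF is the gene drawn with lower means in NF1KO than in CTRL cells under both treatments.

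Genes around the respiratory chain were taken from lists chosen with earlier results of these data known. In NF1KO cells their counts stand against 8.47% of all tested genes that fell and 10.3% that rose. In CTRL cells they stand against 21.8% that fell and 22.6% that rose. These lists and their single genes were not followed under the alternatives, so how far their calls rest on single libraries was not tested. Of 17 genes of pyruvate dehydrogenase and the citric acid cycle, 13 fell and 0 rose in NF1KO cells, and 13 fell and 0 rose in CTRL cells (76.5% in each), with medians of -0.29 in NF1KO and -0.38 in CTRL cells. FH, the fumarase of the cycle, fell by 0.30 ± 0.06 in NF1KO and 0.58 ± 0.06 in CTRL cells. DLAT, the acetyltransferase of pyruvate dehydrogenase, fell by 0.31 ± 0.07 in NF1KO and 0.63 ± 0.06 in CTRL cells, and OGDH, of the oxoglutarate dehydrogenase complex, fell by 0.48 ± 0.08 in NF1KO and 0.43 ± 0.07 in CTRL cells. These enzymes feed NADH to complex I and succinate to complex II.

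Among 18 genes of electron carriers and ubiquinone synthesis, 7 fell and 3 rose in NF1KO (38.9% fell) and 9 fell and 1 rose in CTRL cells (50% fell). COQ3, a methyltransferase of ubiquinone synthesis, fell by 0.62 ± 0.08 in NF1KO and 1.07 ± 0.08 in CTRL cells, and COQ8A, a kinase-like protein of the same pathway, rose by 0.77 ± 0.07 in NF1KO and 0.73 ± 0.06 in CTRL cells. Assembly factors gave mixed counts. In NF1KO cells 4 of 17 fell for complex I, 0 of 4 for complex II, 1 of 6 for complex III, 5 of 24 for complex IV and 0 of 6 for complex V, and in CTRL cells 9 of 17, 1 of 4, 2 of 6, 7 of 24 and 2 of 6. For complex IV assembly these are 20.8% in NF1KO and 29.2% in CTRL cells, and for complex I assembly 23.5% in NF1KO and 52.9% in CTRL cells. In each of the lists for complexes III, IV and V 1 gene rose in either line, and 1 rose for complex I in CTRL cells. CMC2, an assembly factor of complex IV, fell by 0.35 ± 0.09 in NF1KO and 1.00 ± 0.08 in CTRL cells, a difference of 0.65 ± 0.12 (adjusted p = 0.00606). TTC19, which acts on complex III, rose by 0.40 ± 0.07 in NF1KO and 0.50 ± 0.06 in CTRL cells.

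Of 24 genes of mitochondrial protein import, 6 fell and 1 rose in NF1KO (25% fell) and 9 fell and 2 rose in CTRL cells (37.5% fell), with TOMM40, the outer membrane channel, falling by 0.58 ± 0.07 in NF1KO and 0.74 ± 0.07 in CTRL cells. Of 15 genes of mitochondrial DNA expression, 1 fell and 0 rose in NF1KO (6.67% fell, near the share of all tested genes) and 5 fell and 2 rose in CTRL cells (33.3% fell). Of 6 subunits and supercomplex factors that the symbol patterns do not take, 1 fell and 1 rose in NF1KO and 2 fell and 1 rose in CTRL cells, among them HIGD1A, which binds complex IV and fell by 0.47 ± 0.07 in NF1KO and 0.53 ± 0.07 in CTRL cells.

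Of 10 transcriptional regulators of respiratory genes, 1 fell in NF1KO (10%, near the 8.47% of all tested genes) and 4 fell in CTRL cells (40%), and 0 rose in either line. PPARGC1B, a coactivator of the PGC-1 family, averaged 5.81 CPM in NF1KO BYL719 and 10.3 CPM in NF1KO DMSO libraries, and 6.68 CPM in CTRL BYL719 and 14.3 CPM in CTRL DMSO libraries, and fell by 0.83 ± 0.19 in NF1KO and 1.10 ± 0.17 in CTRL cells. NRF1, whose motif is shown above, had a log2 fold change of -0.08 ± 0.07 in NF1KO (adjusted p = 0.483) and fell by 0.42 ± 0.07 in CTRL cells (adjusted p = 0.000338). PPARGC1A, the other family member, was lower in NF1KO than in CTRL cells, with log2 fold changes of -1.44 ± 0.17 in DMSO and -1.47 ± 0.14 with BYL719. Of the 10 regulators, 0 were higher and 1 lower in NF1KO cells in DMSO, and 3 were higher and 1 lower with BYL719. These stand against 9.99% and 10.3% of all tested genes in DMSO, and 20.8% and 19% with BYL719. By the interaction, the BYL719 effect was higher in NF1KO cells for 1 of the 10 (5.68% of all tested genes). Their log2 fold changes ran from -1.78 to 0.26 for BYL719 in CTRL cells. Between the lines with BYL719 they ran from -1.47 to 2.36. Whether these regulators had a part in the subunit changes was not tested.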

How the data were processed

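Polyadenylated RNA was sequenced from 11 libraries of T47D cells in 4 groups, and NF1KO DMSO replicate 1 is not analysed here. The authors deposited raw counts per gene, made with STAR 2.5.2a, SAMtools 1.7, Picard 2.9.2 and edgeR on hg38, per the submitters' processing notes. The counting tool, its annotation and its strand setting are not given in the sources used here, and reads shared by overlapping or near-identical genes could be split.

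From these counts, edgeR 4.0.16 in R 4.3.3 was run (filterByExpr, TMM scaling, 1 quasi-likelihood model of 4 groups with 7 residual degrees of freedom), with Benjamini-Hochberg adjustment over 16081 genes and a threshold of 0.05. CPM values use the scaled library sizes. The model of 4 groups was also run on simulated counts of independent libraries, with no effect of the replicate number. The models with blocks were not run on simulated counts. Alternatives were other scalings and filters, DESeq2 1.42.0, limma 3.58.1 (voom), a block for the replicate number, models of the 2 compared groups alone, and models without single libraries. Promoter motifs of NRF1 and YY1 were exact strings of 10 letters, the first with 1 free base, searched on both strands. The number of libraries limits the precision.

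CTRL libraries of the same number deviated together (r = 0.59, 0.34 and 0.32 over genes), and the numbers were taken to pair them. Libraries numbered 2 and 3 also correlated across numbers (r = 0.18 and 0.23), so the check mainly sets the libraries numbered 1 apart. NF1KO libraries did not pass this check (r = 0.08 and 0.15). The members and lists were chosen with earlier results of these data known. The genes named are, in each comparison and complex, up to 3 called members with the largest change, the SDH genes, the isoform families, the catalytic subunits, the 6 smallest adjusted p of the interaction and up to 2 genes of each list. NDUFB4, ATP5F1C, ATP5PB, ATP5PO, NDUFB5, NDUFA13, UQCR11, UQCRB, UQCRQ and UQCR10 were named after their values were seen. Values under alternatives were followed for neither these nor the list genes, apart from the pairing in CTRL cells for the former. Figures were drawn with matplotlib 3.10.9.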

Additional observations from a re-analysis of the deposited data

How the results depend on the processing

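The median log2 fold change of the 82 genes stayed negative for BYL719 in both lines and positive for NF1KO against CTRL with BYL719 under all alternatives run. It changed sign for NF1KO against CTRL in DMSO (0.05) with the replicate block (-0.02), without CTRL DMSO replicate 1 and without both CTRL libraries numbered 1 (-0.03 each), and for the difference of effects (0.06) without CTRL BYL719 replicate 1 (-0.05) or NF1KO BYL719 replicate 3 (-0.03). Of 4216 values of named genes under alternatives, 133 gained and 101 lost a call, 23 uncalled ones moved by more than their standard error, and 179 had another sign, 66 of them for the difference of effects; none of these 179 passed the threshold in either setting. Counts of called genes moved more. For BYL719 in CTRL cells (33 lower, 0 higher), leaving out 1 library gave 21 to 39 lower and 0 to 2 higher, and leaving out both CTRL libraries numbered 1 gave 1 higher. For BYL719 in NF1KO cells (13 lower, 0 higher), leaving out 1 library gave 1 to 21 lower and 0 to 1 higher, only the compared libraries gave 26 lower, and leaving out both CTRL libraries numbered 1 gave 33 lower and 1 higher. For NF1KO against CTRL in DMSO (1 higher, 3 lower), no filter, DESeq2, only the compared libraries and leaving out both CTRL libraries numbered 1 each gave 2 higher, and leaving out 1 library gave 0 to 3 higher and 0 to 4 lower. For NF1KO against CTRL with BYL719 (8 higher, 3 lower), leaving out 1 library gave 4 to 11 higher and 2 to 7 lower, and leaving out both CTRL libraries numbered 1 gave 9 lower. For the difference of effects (0 either way), DESeq2 and leaving out both CTRL libraries numbered 1 each gave 2 higher, and leaving out 1 library gave 0 to 1 higher. The cause of these moves was not tested. Where 1 NF1KO DMSO library is left, it is assumed to vary like the other groups.

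With the replicate block over all libraries, BYL719 gave 48 lower in CTRL and 1 higher in NF1KO cells, NF1KO against CTRL gave 3 higher and 5 lower in DMSO and 20 higher with BYL719, and the difference gave 2 higher. Blocks within each line and in CTRL libraries alone were added after seeing the data. The block within each line gave 58 lower and 4 higher in CTRL cells, 41 lower and 1 higher in NF1KO cells, and a difference for 9 higher and 2 lower. The CTRL-only block, with 2 residual degrees of freedom, gave 62 lower and 4 higher.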
